A study of Mus musculus with 2 samples.

Results

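The genes examined were 51 listed neighbours of Mmp14 on mouse chromosome 14, chosen by position and with Mmp14 itself left out. Of these 51 genes, 45 had a probe named on the array, out of 16390 named genes in all, and 6 (Tep1, Ccnb1ip1, Ang, Rbm23, Psme2 and Dhrs4) had none. Among the 45, 5 (Supt16, Tox4, Haus4, Ajuba and Ngdn) were found under older symbols. Expression was read on 2 arrays, each setting MMP-14 knockout RNA, labelled with Cy3, against wild-type RNA, labelled with Cy5. The first array held Dlk+ cells, a population rich in hepatoblasts, sorted from fetal liver as Dlk+CD45-CD71-Ter119- cells, with 100000 cells and 3 livers per genotype. Its labels say E14, and the design text says E14.5. The second held whole liver mixed from 2 livers per genotype, for which the labels say P1 and the design text says E18.5. The E14 array is named after its label, and likewise the P1 array. The sources used here do not give the mouse strain, the construction of the knockout allele or any backcross. There was 1 array per comparison and no array with the dyes swapped, so the spread between animals is unknown, no test was possible, and an effect of the dye on a probe cannot be told apart from genotype.

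Mmp14 encodes a membrane-anchored metalloproteinase that cuts matrix proteins and activates pro-MMP-2. A targeted allele is inherited together with the DNA on either side of it. Where the allele was made in embryonic stem cells of one strain and bred into another, neighbouring genes can keep the variants of the first strain in knockout animals, and a selection cassette in the allele can also affect genes beside it. Which strain variants these mice carry was not tested. The interval also holds the T cell receptor alpha and delta segments, which lie between Sall2 and Dad1 in the RefSeq gene order (202 annotated segments and constant regions).

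Relative to the other genes of each array, Mmp14 itself read lower in knockout RNA than in wild-type RNA. It gave a signal of 132 in knockout and 131 in wild-type RNA on the E14 array, and of 104 in knockout and 161 in wild-type RNA on the P1 array. The log2 ratio of knockout over wild type, after background correction (normexp) and loess within the array, was -1.13 on the E14 array, where 8 of 12705 genes were lower, and -1.30 on the P1 array, where 101 of 12715 were lower. These signals have to be read against the whole array, where the median probe was 2.09-fold brighter in the knockout channel on the E14 array and 1.65-fold brighter on the P1 array. In the authors' deposited table Mmp14 stood at -2.13 on the E14 array and -2.83 on the P1 array. Whether its probe lies inside the deleted part is unknown, so its value is a limited check of the labels.

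A channel counted as detectable above the mean plus 2 SD of the blank spots, which was 85.1 for the knockout and 44.3 for the wild type on the E14 array, and 87.0 for the knockout and 50.5 for the wild type on the P1 array. The hepatoblast marker list, with 8 of 10 genes on the array, was detectable in both channels of both arrays. It had a median log2 ratio of -0.44 on the E14 array and of 0.09 on the P1 array. Past 1.5-fold lower were 4 of 8 genes on the E14 array (Afp at -1.26, Alb at -1.31, Ttr at -1.36 and Apoa1 at -0.76) and 3 of 8 on the P1 array. These 4 were very bright on the E14 array, with knockout readings of 36583, 37592, 34246 and 33338 in that order. All 4 readings are whole numbers, and whether such readings lie at the limit of the scanner was not tested. With whole-number readings left out, 0.118% of all genes were past 1.5-fold lower on the E14 array, against 0.22% with them. The members had 0 such readings on either array. The less bright markers of the list stood at -0.03 (Dlk1), -0.12 (Hnf4a), 0.00 (Foxa2) and 0.02 (Cdh1) on the E14 array. Stellate and fibroblast markers (7 of 7 genes) had a median log2 ratio of 0.37 on the E14 array, with summed signals of 18243 in the knockout and 5412 in the wild-type channel. Lung epithelial markers, which include the surfactant protein gene Sftpc, had summed signals of 780.5 in knockout and 37246 in wild-type RNA on the P1 array, where 6 of 7 were detectable in the knockout and 7 of 7 in the wild type. On the E14 array the same list summed to 659.6 in the knockout and 327 in the wild-type channel, and 4 of 7 genes were detectable in each. Single readings there ran from 82.6 to 120 in the knockout and from 40.6 to 58.7 in the wild type. Some detectable ones were barely above the threshold, such as Sftpc at 85.2 in the knockout and Sftpa1 at 44.4 in the wild type. T cell markers had 2 of 3 genes detectable in the knockout and 1 of 3 in wild-type RNA on the E14 array, and 2 of 3 in each channel of the P1 array. The precision of all values is limited by the number of arrays.

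The sequences just upstream of 4 starts are shown because the results turn on these genes: Mmp14 as the targeted gene, Supt16 and Pnp as the members with the largest ratios in each direction, and Rnase4 because the same window is listed for Ang, which had no named probe. Each is the 250 bases before an annotated start, from the RefSeq table of build GRCm38.p6. That build is the C57BL/6J sequence, and whether the mice studied carry it is unknown. Capitals mark matches on either strand to the GC box GGGCGG, the CCAAT box and the TATA box TATAAA.
Mmp14, chr14:54431348-54431597 on the plus strand: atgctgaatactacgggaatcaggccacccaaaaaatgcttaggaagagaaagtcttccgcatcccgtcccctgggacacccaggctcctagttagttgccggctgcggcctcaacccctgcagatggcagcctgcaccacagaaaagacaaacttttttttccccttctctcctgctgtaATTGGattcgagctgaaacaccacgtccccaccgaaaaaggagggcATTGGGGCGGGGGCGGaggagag
Supt16, chr14:52197240-52197489 on the minus strand: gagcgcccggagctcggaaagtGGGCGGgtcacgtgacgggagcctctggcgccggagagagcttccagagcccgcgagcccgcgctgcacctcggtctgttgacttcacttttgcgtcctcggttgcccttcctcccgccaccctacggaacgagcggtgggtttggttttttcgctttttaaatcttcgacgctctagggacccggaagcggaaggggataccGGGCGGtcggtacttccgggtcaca
Pnp, chr14:50944053-50944302 on the plus strand: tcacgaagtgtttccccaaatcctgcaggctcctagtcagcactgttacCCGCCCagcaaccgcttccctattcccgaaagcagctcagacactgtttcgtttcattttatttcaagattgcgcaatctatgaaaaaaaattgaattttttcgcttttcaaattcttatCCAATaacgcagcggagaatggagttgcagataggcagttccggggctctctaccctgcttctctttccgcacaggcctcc
Rnase4, chr14:51090827-51091076 on the plus strand: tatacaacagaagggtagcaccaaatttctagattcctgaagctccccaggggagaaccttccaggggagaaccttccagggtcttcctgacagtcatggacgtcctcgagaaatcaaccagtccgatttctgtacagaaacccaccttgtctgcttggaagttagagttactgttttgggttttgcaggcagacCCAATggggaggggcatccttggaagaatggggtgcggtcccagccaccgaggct
The Supt16 window held 28 CpG dinucleotides and 63.6% G or C, against a median of 6 CpG and 52.4% over 32851 windows of the same length. The Pnp window held 11 CpG and 46.8% G or C, the Mmp14 window 10 CpG and 55.2%, and the Rnase4 window 5 CpG and 52.4%. Rnase4 has a second annotated start, whose window is not shown. It held 2 CpG, 46% G or C and no match to the GC, CCAAT or TATA box. A GC box was found in the windows of Mmp14 (2, of which 1 shares letters with a CCAAT match), Supt16 (2) and Pnp (1), and in 32.7% of all windows. A CCAAT match was found in the windows of Mmp14 (2), Pnp (1) and Rnase4 (1), and in 33.8% of all windows, while TATAAA was found in none of the 4 and in 12.4% of all windows. These matches describe letters and not bound sites.

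Most of the measured neighbours had similar signal ratios to the rest of the array. On the E14 array 40 members were detectable in both channels, with a median log2 ratio of 0.02, against 0.01 over all genes, and on the P1 array 43 were, with a median of 0.01, against -0.00 over all genes. At 1.5-fold, 1 of 40 members was higher in the knockout on the E14 array (0.307% of all genes) and 0 were lower (0.22%). On the P1 array 2 of 43 were higher (2.85% of all genes) and 1 was lower (4.12%). At 2-fold, 1 member was higher (0.0157%) and 0 were lower (0.0945%) on the E14 array, and 1 was higher (0.558%) and 0 were lower (1.45%) on the P1 array, the higher one being Supt16 each time. The 3 members past 1.5-fold were Supt16, higher on both arrays, Apex1, higher on the P1 array, and Pnp, lower on the P1 array. One member, Supt16, was past 1.5-fold in the same direction on both arrays, where 2 of 12005 genes were higher (0.0167%) and 13 were lower (0.108%). Of the 40 members on the E14 array 24 had a ratio above 0 (53.1% of all genes), and of the 43 on the P1 array 23 did (49.6%). Signs often differed between the arrays: of the 40 members measured on both arrays, 13 were above 0 on both, 8 below 0 on both and 19 of opposite sign, against 30.0%, 26.5% and 43.5% of all genes.

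**Figure D1:**
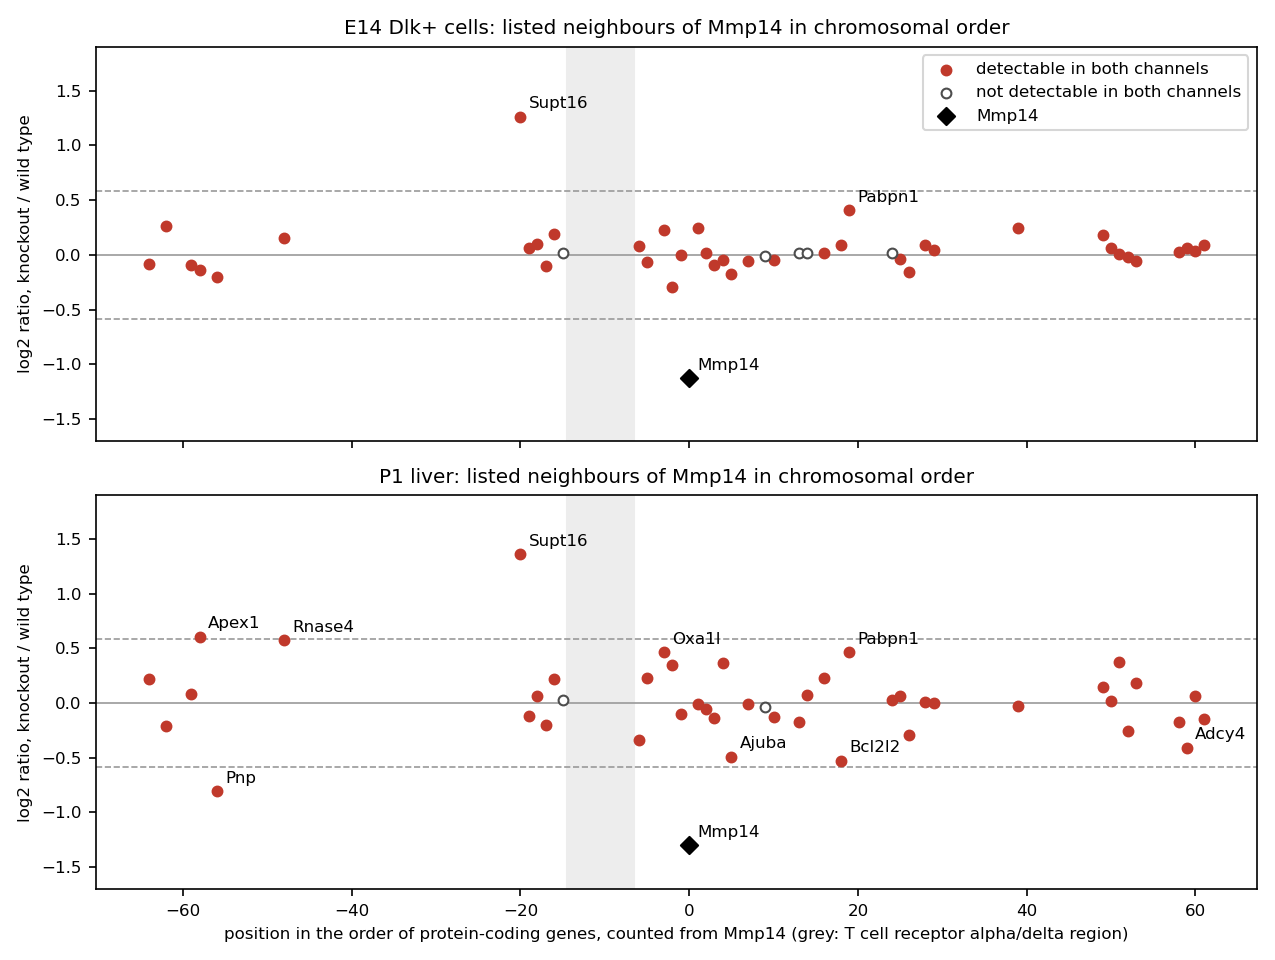
Log2 ratio of knockout over wild type (vertical axis) for each listed neighbour with a named probe, in the order of protein-coding genes counted from Mmp14 (horizontal axis), on the E14 Dlk+ array (top) and the P1 liver array (bottom); dashed lines mark 1.5-fold. Supt16 stands at 1.26 and 1.36, Pnp at -0.21 and -0.81 and Mmp14 at -1.13 and -1.30 on the E14 and P1 arrays. Apex1 at 0.61 also lies outside the 1.5-fold lines on the P1 array. Chd8, next to Supt16, and Mrpl52 and Lrp10, next to Mmp14, lie inside the lines on both arrays. The grey band holds the T cell receptor segments and open circles are members not detectable in both channels.

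The offset of 50 used in normalisation draws the ratios of dim genes towards 0, so a second scale is given for members near the thresholds. On that scale, which is the authors' deposited value, the blank mean is subtracted and the ratios are centred, and a span was added by moving each reading by 2 SD of the blank spots. The span covers the noise of empty spots only and not that of animals, labelling or dye, nor the choice of scale. This second scale has no loess step, so bright members can differ between the scales as well. Oxa1l on the P1 array stood at 0.47 after normexp and loess, 0.45 with an offset of 0 and 0.67 by the deposited value. By the deposited values alone, 4 members were past 1.5-fold higher (5.38% of all genes) and 2 lower (1.22%) on the E14 array, and 9 higher (11.9%) and 5 lower (12.2%) on the P1 array. Supt16 was past 1.5-fold higher on both arrays (0.95% of all genes) and Pnp lower on both (0.333%). The whole span lay past 1.5-fold for 1 of 40 members on the E14 array (1.14% of all genes), Supt16, which was higher (0.795%, and 0.346% lower), and for 9 of 43 on the P1 array (12.9%), of which 5 were higher (6.26%) and 4 lower (6.69%). The higher ones on the P1 array were Supt16, Apex1, Rnase4, Oxa1l and Pabpn1, and the lower ones Pnp, Ajuba, Bcl2l2 and Adcy4. A second yardstick was the SD between different probes of a gene, 0.12 on the E14 array and 0.23 on the P1 array over 139 genes each. More than 2 of these SDs from 0 were 6 of 40 members on the E14 array (7.08% of all genes) and 8 of 43 on the P1 array (12.3%).

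**Figure D2:**
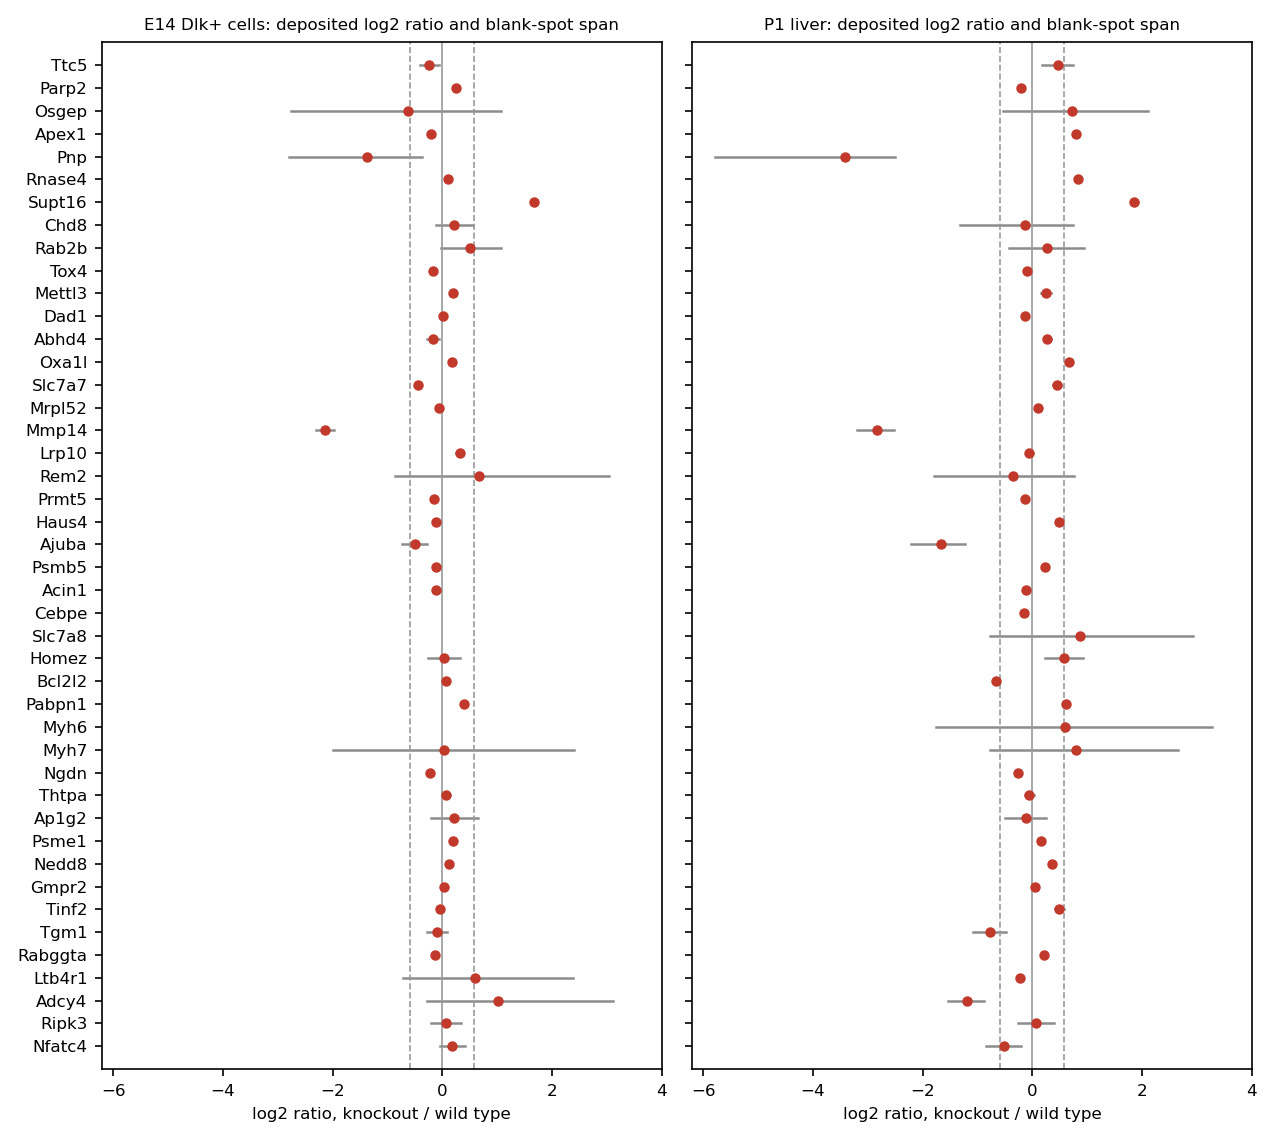
The authors' deposited log2 ratio of knockout over wild type (points) and the span from moving both readings by 2 SD of the blank spots (lines), for Mmp14 and the members detectable in both channels, in chromosomal order from top to bottom, on the E14 Dlk+ array (left) and the P1 liver array (right); dashed lines mark 1.5-fold. Supt16 has a span of 1.62 to 1.73 on the E14 array and 1.79 to 1.93 on the P1 array, while dim genes such as Myh7, Rem2 and Osgep have spans that include 0 on both arrays.

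Supt16 was the member with the largest difference. It encodes the large subunit of FACT, a histone chaperone that opens and restores nucleosomes ahead of polymerases. Its signal was 602 in knockout and 106 in wild-type RNA on the E14 array, and 417 in knockout and 116 in wild-type RNA on the P1 array. The knockout reading was thus well above the wild-type reading on both arrays, by more than the usual gap between the channels. The log2 ratio was 1.26 on the E14 array, a 2.40-fold difference, with 0 of 12705 genes higher, and 1.36 on the P1 array, a 2.57-fold difference, with 21 of 12715 higher. In the authors' deposited table the values were 1.67 and 1.86. Under the alternative processing settings the ratio ranged from 1.19 to 2.65 on the E14 array and from 1.22 to 3.30 on the P1 array. It has 1 probe, listed under the older symbol Supt16h, and both arrays had knockout RNA in Cy3, so a property of this probe cannot be told apart from a difference of genotype.

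The measured genes around Supt16 were not past 1.5-fold after normexp and loess. Its next neighbour towards Mmp14 is Chd8, a chromodomain helicase gene, which has 2 probes. The brighter Chd8 probe read 1017 in knockout and 401 in wild-type RNA on the E14 array and 508 in knockout and 401 in wild-type RNA on the P1 array, with log2 ratios of 0.08 and -0.22. The dimmer one gave 0.06 and -0.03, at signals of 106 in knockout and 49.7 in wild-type RNA on the E14 array. Further along, Rab2b, a small GTPase gene of vesicle traffic, had ratios of 0.10 and 0.07 on the E14 and P1 arrays. Tox4, which encodes an HMG-box subunit of a phosphatase complex on chromatin, stood at -0.10 and -0.20, and Mettl3, the catalytic subunit of the RNA m6A methyltransferase, at 0.19 and 0.22. On the other side of Supt16, Hnrnpc, which is not a listed member and was chosen after its values were seen, stood at -0.24 and -0.40.

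The remaining chromatin and transcription genes lay close to 0. Prmt5, an arginine methyltransferase, had ratios of -0.09 on the E14 and -0.14 on the P1 array, and Ttc5, which encodes a p300 cofactor, -0.08 and 0.22. Homez, a homeobox gene, stood at 0.02 and 0.23, and Nfatc4, a calcium-regulated transcription factor gene, at 0.09 and -0.14. Without Supt16, the 6 others of this group on the E14 array and the 7 on the P1 array were all within 1.5-fold. Cebpe, a transcription factor of granulocyte maturation, was detectable in both channels on the P1 array only, with signals of 445 in the knockout and 344 in the wild type and a ratio of -0.17. Sall2, a zinc finger gene, was detectable in the knockout channel of the E14 array only, at 87.0 against a threshold of 85.1, with the wild type at 43.1. Cebpe was likewise detectable in the knockout channel of that array only, at 88.8, with the wild type at 43.6.

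Pnp had the lowest ratios of the members on the P1 array. It encodes purine nucleoside phosphorylase, an enzyme of purine salvage, and lies beside a near copy, Pnp2, so signal from the 2 genes may not be separate. Its signal was 89.0 in knockout and 50.7 in wild-type RNA on the E14 array, and 88.1 in knockout and 92.6 in wild-type RNA on the P1 array. The wild-type readings were above the thresholds on both arrays, and the knockout readings were barely so. On the P1 array the knockout reading was 2.52 blank SDs above the blank mean and the wild-type reading 36.6. The log2 ratio was -0.21 on the E14 array and -0.81 on the P1 array, and in the authors' deposited table -1.38 and -3.42. The span from blank-spot noise ran from -2.79 to -0.37 on the E14 array and from -5.78 to -2.50 on the P1 array. At the stricter threshold of 3 blank SDs the knockout reading of the P1 array was no longer detectable, and with the local background used in the correction its P1 ratio was -0.11. In bulk RNA, fewer cells of a type and less RNA per cell cannot be told apart.

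**Figure D3:**
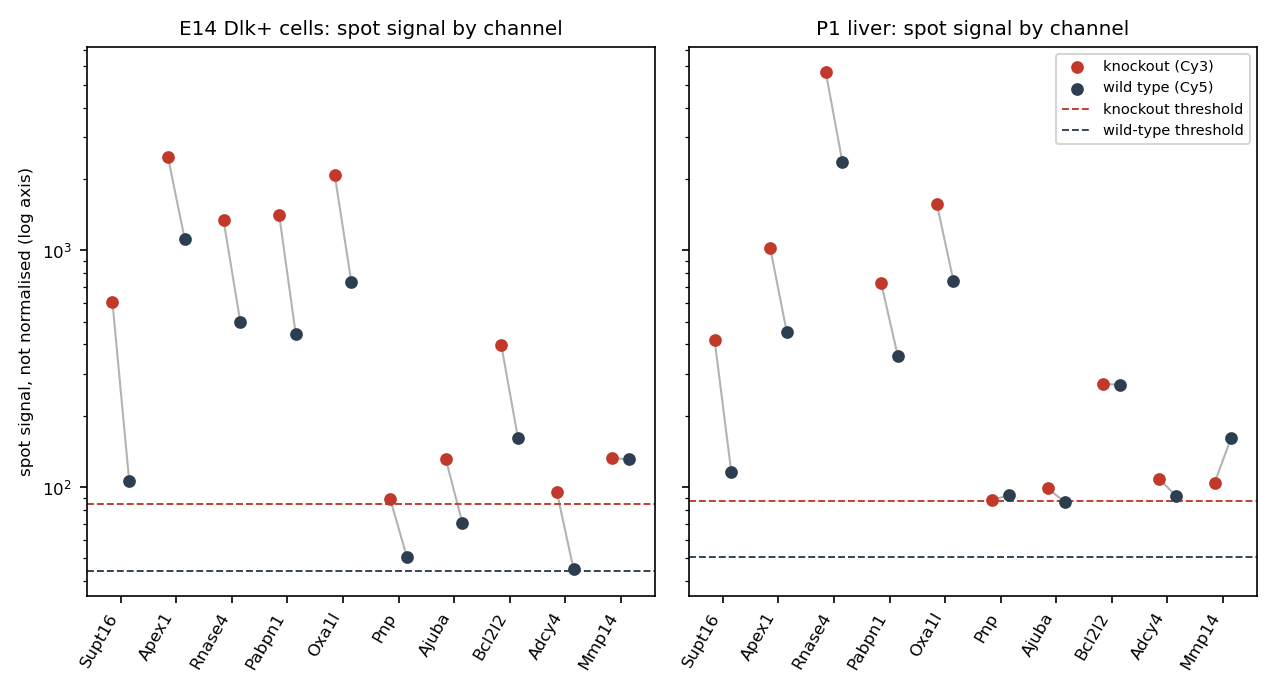
Spot signal before normalisation (log axis) in the knockout channel (red, left point of each pair) and the wild-type channel (dark, right point) for 9 neighbours and Mmp14, on the E14 Dlk+ array (left) and the P1 liver array (right); dashed lines are the detection thresholds. The knockout reading of Pnp lies at its threshold on both arrays (89.0 and 88.1), and Supt16 has the widest gap of knockout over wild type (602 over 106 and 417 over 116).

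The other genes of metabolism were within 1.5-fold on both arrays. Abhd4, a lipase gene of N-acyl phospholipid breakdown, stood at -0.06 on the E14 and 0.23 on the P1 array, Thtpa, thiamine triphosphatase, at 0.09 and 0.01, and Gmpr2, a GMP reductase, at 0.07 and 0.02. Abhd4 had signals of 199.5 in knockout and 94.9 in wild-type RNA on the E14 array, and of 270.2 in knockout and 163 in wild-type RNA on the P1 array.

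Among the genes of DNA repair and telomeres, Apex1 was past 1.5-fold higher in the knockout on the P1 array and not on the E14 array, a difference between arrays that was not tested. Apex1 encodes the endonuclease that cuts at abasic sites in base excision repair. Its signal was 2464 in knockout and 1116 in wild-type RNA on the E14 array, and 1025 in knockout and 451 in wild-type RNA on the P1 array. The log2 ratio was -0.13 on the E14 array and 0.61 on the P1 array, a 1.52-fold difference that 334 of 12715 genes exceeded. Parp2, a poly(ADP-ribose) polymerase gene of strand break repair, stood at 0.26 and -0.21, with signals of 849 in knockout and 297 in wild-type RNA on the E14 array. Tinf2, which encodes the shelterin subunit TIN2, stood at 0.01 and 0.38. Haus4, a subunit gene of the augmin complex of the spindle, stood at -0.05 and 0.37.

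Rnase4 lay just under the threshold on the P1 array. It encodes a secreted ribonuclease made in liver. Its signal was 1336 in knockout and 499 in wild-type RNA on the E14 array, and 5659 in knockout and 2364 in wild-type RNA on the P1 array. The log2 ratio was 0.15 on the E14 array and 0.58 on the P1 array, a 1.49-fold difference, and 0.11 and 0.83 in the authors' deposited table. Apex1 at 1.52-fold and Rnase4 at 1.49-fold stand on either side of the 1.5-fold threshold with ratios that differ by less than the SD between probes.

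After normexp and loess the members nearest to Mmp14 were not past 1.5-fold on either array. Within 10 protein-coding genes of Mmp14, 12 members were detectable in both channels, with ratios from -0.30 to 0.25 on the E14 array and from -0.49 to 0.47 on the P1 array, and medians of -0.05 and -0.03. Other settings put some of them past 1.5-fold, the 2 genes adjacent to Mmp14 among them. With each array centred on its median instead of loess, Mrpl52 stood at 0.74 on the E14 and 0.37 on the P1 array. Lrp10 stood at 0.65 and 0.14. Under that setting the median of all genes on the E14 array was 0.29, and 24.9% were past 1.5-fold higher. With the local background subtracted, Haus4 stood at 0.73 on the E14 and 2.44 on the P1 array, and with it used in normexp at 0.44 and 1.03. Under subtraction Slc7a7 stood at -0.33 and 0.92, and Rem2 at 1.21 and -0.18. There, 14.2% of all genes on the E14 and 18.4% on the P1 array were past 1.5-fold higher. In the authors' deposited table, a scale without loess, Oxa1l stood at 0.67 on the P1 array, with a blank-spot span of 0.66 to 0.68. On that scale 11.9% of all genes were past 1.5-fold higher on the P1 array. On one side the adjacent gene is Mrpl52, a subunit of the mitochondrial ribosome. Its signal was 7647 in knockout and 3148 in wild-type RNA on the E14 array, and 2114 in knockout and 1447 in wild-type RNA on the P1 array, with ratios of 0.00 and -0.10. On the other side the adjacent gene is Lrp10, a lipoprotein receptor family member, with signals of 298 in knockout and 111 in wild-type RNA on the E14 array and of 252 in knockout and 178 in wild-type RNA on the P1 array. The ratios of Lrp10 were 0.25 and -0.01.

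Slc7a7 and Oxa1l lie next on the side of Mrpl52. Slc7a7 encodes the light chain of a transporter of cationic amino acids, and its signal was 373 in knockout and 197 in wild-type RNA on the E14 array and 268 in knockout and 149 in wild-type RNA on the P1 array. It was the lowest member on the E14 array at -0.30, and stood at 0.35 on the P1 array. Oxa1l, which encodes the insertase that places proteins in the mitochondrial inner membrane, had ratios of 0.23 and 0.47. Its signal was 2085 in knockout and 734 in wild-type RNA on the E14 array, and 1573 in knockout and 742 in wild-type RNA on the P1 array. Dad1, a subunit of the oligosaccharyltransferase of the endoplasmic reticulum, stood at 0.09 and -0.34. The Dad1 signal was 6014 in knockout and 2338 in wild-type RNA on the E14 array, and 2225 in knockout and 1788 in wild-type RNA on the P1 array.

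On the far side of Lrp10 the first genes were also within 1.5-fold after normexp and loess. Rem2, a GTPase gene of the RGK family, was near the thresholds, with signals of 91.8 in knockout and 45.0 in wild-type RNA on the E14 array and of 91.1 in knockout and 56.2 in wild-type RNA on the P1 array, so its ratios of 0.02 and -0.05 say little. Prmt5 had signals of 953 in knockout and 424 in wild-type RNA on the E14 array, and of 365 in knockout and 278 in wild-type RNA on the P1 array. Haus4 had signals of 568 in knockout and 249 in wild-type RNA on the E14 array, and of 433 in knockout and 234 in wild-type RNA on the P1 array. Next comes Ajuba, which encodes a LIM protein of cell contacts and Hippo signalling, with signals of 132 in knockout and 70.4 in wild-type RNA on the E14 array and of 98.9 in knockout and 86.4 in wild-type RNA on the P1 array. Its ratios were -0.17 and -0.49, and -0.50 and -1.67 in the authors' deposited table, where the P1 span ran from -2.21 to -1.22.

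RNA, protein breakdown and mitochondrial genes were all within 1.5-fold after normexp and loess. By the deposited values Oxa1l (0.67), Pabpn1 (0.62) and Osgep (0.73) were past 1.5-fold higher on the P1 array (11.9% of all genes). Osgep (-0.63) was lower on the E14 array (1.22%). The spans of Oxa1l and Pabpn1 lay past 1.5-fold, and both spans of Osgep include 0. Pabpn1, the nuclear poly(A)-binding protein gene, was the second highest member on the E14 array, with signals of 1414 in the knockout and 442 in the wild-type channel, and 724 in knockout and 356 in wild-type RNA on the P1 array. Its ratios were 0.41, which 128 of 12705 genes exceeded, and 0.47, which 674 of 12715 exceeded. Acin1, a splicing-related gene, stood at -0.05 and -0.13, and Ngdn, which encodes neuroguidin, at -0.16 and -0.29. Osgep, a tRNA modification enzyme gene, had signals of 87.4 in knockout and 46.3 in wild-type RNA on the E14 array, close to both thresholds, with a ratio of -0.09. Psmb5, a catalytic subunit of the proteasome, stood at -0.05 and -0.01, Psme1, a subunit of the PA28 proteasome activator, at 0.25 and -0.02, and Nedd8, a ubiquitin-like modifier, at 0.18 and 0.15.

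The remaining genes of transport and trafficking were also within 1.5-fold after normexp and loess. Rabggta, a subunit of the enzyme that prenylates Rab proteins, stood at -0.05 on the E14 and 0.18 on the P1 array, and Ap1g2, an adaptor protein gene of vesicle coats, at 0.05 and 0.00. Slc7a8, the light chain gene of a transporter of neutral amino acids, was detectable in neither channel of the E14 array. On the P1 array Slc7a8 read 91.9 in knockout and 51.8 in wild-type RNA, close to both thresholds, with a ratio of 0.07. Its deposited value there was 0.88, with a span of -0.77 to 2.94.

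Bcl2l2 lies directly beside Pabpn1 and had the opposite sign on the P1 array. It encodes the survival protein BCL-W. Its signal was 398 in knockout and 161 in wild-type RNA on the E14 array, and 272 in knockout and 271 in wild-type RNA on the P1 array. The ratios were 0.09 and -0.52, and 0.07 and -0.67 in the authors' deposited table. On the P1 array the neighbouring pair thus read 0.47 for Pabpn1 and -0.52 for Bcl2l2.

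Signalling, adhesion and muscle genes were mostly dim and had no member past 1.5-fold after normexp and loess. Their ratios ran from -0.17 to 0.09 over 8 detectable members on the E14 array and from -0.52 to 0.07 over 9 on the P1 array. By the deposited values 3 were higher on the E14 array (5.38% of all genes), and 2 were higher (11.9%) and 4 lower (12.2%) on the P1 array. Adcy4, an adenylyl cyclase gene expressed in endothelium, had signals of 95.3 in knockout and 45.1 in wild-type RNA on the E14 array, and of 109 in knockout and 92.0 in wild-type RNA on the P1 array. Its ratios were 0.06 and -0.41. Tgm1, a transglutaminase gene of epithelium, stood at -0.02 and -0.25, and -0.77 on the P1 array in the authors' deposited table. Ripk3, the kinase gene of necroptosis, stood at 0.03 and 0.07. Ltb4r1, a leukotriene B4 receptor gene of leukocytes, stood at 0.02 and -0.18, and its readings of 93.3 in knockout and 45.6 in wild-type RNA on the E14 array were near the thresholds. The cardiac myosin genes Myh6 and Myh7 had readings of 89.3 and 92.2 in the knockout and 51.3 and 52.1 in wild-type RNA on the P1 array, close to the thresholds. On the E14 array Myh6 was detectable in the knockout channel only, at 86.5, with the wild type at 42.7. Cdh24, a cadherin gene, was detectable in no channel of either array, and neither was Sall2 on the P1 array.

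Marker lists of several other cell types had negative medians on the P1 array beside these lower members. The lung list had a median log2 ratio of -5.25, with 6 of 6 genes past 1.5-fold lower, and the endothelial list -0.67, with 3 of 5. The erythroid list had a median of -0.59, with 2 of 3 past 1.5-fold lower, the stellate and fibroblast list -0.39, with 2 of 7, and the leukocyte list -0.26, with 0 of 4. On the E14 array the endothelial list had a median of -0.05 over 4 genes. On the P1 array the endothelial signals summed to 3235 in the knockout and 3782 in wild-type RNA. The part of these cells in the P1 ratios of Pnp, Ajuba, Bcl2l2, Adcy4 and Tgm1 was not tested. On the E14 array 2 of 7 stellate and fibroblast markers were past 1.5-fold higher and 4 of 8 hepatoblast markers past 1.5-fold lower. Those 4 were the very bright ones, while Dlk1, Hnf4a, Foxa2 and Cdh1 lay from -0.12 to 0.02. The part of these cell types in the E14 ratios of Supt16 and Pabpn1 was not tested.

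By position, the members past 1.5-fold after normexp and loess, Supt16, Apex1 and Pnp, lay beyond the T cell receptor segments. The authors' deposited values placed others elsewhere, on a scale where many genes of the whole array were past 1.5-fold. On the P1 array 4 higher (11.9% of all genes) and 4 lower members (12.2%) lay after Mmp14 and 1 higher between the segments and Mmp14. On the E14 array 3 higher lay after Mmp14 (5.38%). The blank-spot spans of Myh6, Myh7 and Slc7a8, among the higher on the P1 array, include 0. So do those of Adcy4, Ltb4r1 and Rem2, the higher ones on the E14 array. With the local background subtracted, Haus4 and Ajuba, on the far side of Lrp10, were past 1.5-fold on both arrays, as were 7.35% of all genes in the same direction. In the RefSeq order, 19 protein-coding genes lie between Supt16 and Mmp14, 55 between Pnp and Mmp14, and 57 between Apex1 and Mmp14. The 11 detectable members beyond the T cell receptor segments (Ttc5 to Sall2) had median log2 ratios of 0.07 on the E14 array and 0.08 on the P1 array, and ranged from -0.21 to 1.26 and from -0.81 to 1.36. The 5 members between these segments and Mmp14 (Dad1 to Mrpl52) had medians of 0.00 and 0.23. The members after Mmp14 (Lrp10 to Nfatc4) had medians of 0.02 over 24 genes and -0.01 over 27, and ranged from -0.17 to 0.41 and from -0.52 to 0.47.

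Unlisted genes of the same interval were mostly unmeasured or within 1.5-fold. From the first to the last member the annotation holds 413 genes and segments of all kinds, of which 362 are neither members nor Mmp14. Of these, 54 had a named probe. On the E14 array 37 of them were detectable in both channels, with 0 past 1.5-fold after normexp and loess and a median of -0.05. On the P1 array 38 were, with a median of -0.06, 0 higher and 1 lower (4.12% of all genes). That 1 was Dhrs1 at -0.59, which was named after its value was seen. By the deposited values 0 were past 1.5-fold on the E14 array, and 0 were higher and 2 lower on the P1 array (12.2%), with medians of -0.14 and -0.12. More of these genes lay below 0 than above it. After normexp and loess 11 of 37 were above 0 on the E14 array (53.1% of all genes) and 14 of 38 on the P1 array (49.6%). The reason was not tested.

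Genes elsewhere in the genome that encode partners of the members were all within 1.5-fold after normexp and loess, where measured. By the deposited values 1 was higher on the E14 array (Mlkl at 0.68, 5.38% of all genes) and 2 on the P1 array (Wdr77 at 0.67 and Uba3 at 0.65, 11.9%). A list of 52 partners in complexes with the members had 46 detectable on both arrays, with medians of 0.02 on the E14 array and 0.07 on the P1 array, and 0 past 1.5-fold on either. The 2 cofactors of the Mettl3 methyltransferase stood at 0.01 and 0.06 (Mettl14) and at 0.15 and 0.34 (Wtap), and the Prmt5 cofactor Wdr77 at -0.10 and 0.51. The other FACT subunit gene, Ssrp1, had no named probe.

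Levels of the members in P1 liver and E14 Dlk+ cells were set side by side within each genotype. Channel values were scaled between the arrays for this, and tissue, sorting and stage differ together, so the difference cannot be ascribed to any of them. In the knockout channels 3 of 42 members were at least 2-fold higher in P1 liver (6.19% of all genes) and 2 at least 2-fold lower (5.97%). In the wild-type channels 2 of 40 were higher (6.54%) and 2 lower (4.77%). Rnase4 was 5.51-fold higher in knockout and 4.10-fold higher in wild-type P1 liver, and Ltb4r1 4.09-fold and 4.69-fold higher. Cebpe was 6.22-fold higher in knockout P1 liver, with an E14 reading near the threshold, and not detectable in wild-type E14 cells. Leukocyte markers also had higher spot signals on the P1 array, read before any scaling between the arrays. Summed over 4 genes they were 3624 in P1 and 572 in E14 knockout channels, and 2778 and 257 in the wild-type channels. Of these sums, Mpo alone gave 2657 in P1 and 160 in E14 knockout channels, and 1975 and 58.2 in the wild-type channels. The E14 cells had been sorted as CD45-, and the part of leukocytes in the levels of Cebpe and Ltb4r1 was not tested.

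Mrpl52 was lower in P1 liver than in E14 cells, by 2.84-fold in the knockout and 2.64-fold in the wild-type channels. Dad1 was lower by 2.16-fold and 1.60-fold, and Apex1 by 1.76-fold and 2.94-fold. Supt16 was lower in P1 liver by 1.12-fold in the knockout and 1.19-fold in the wild-type channels, or -0.16 in the knockout and -0.26 in the wild-type channels on the log2 scale.

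**Figure D4:**
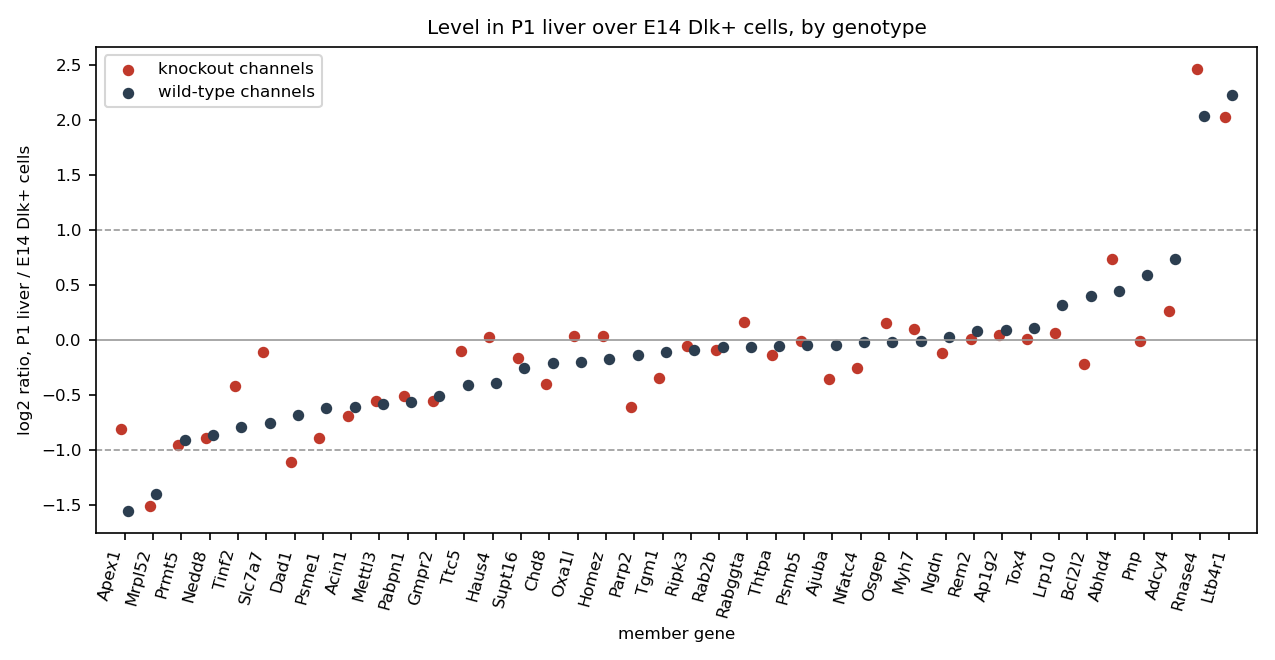
Log2 ratio of the level in P1 liver over E14 Dlk+ cells (vertical axis) for the members detectable on both arrays in both genotypes, in the knockout channels (red, left) and the wild-type channels (dark, right), ordered by the wild-type value; dashed lines mark 2-fold. Rnase4 (2.46 in knockout, 2.04 in wild type) and Ltb4r1 (2.03 in knockout, 2.23 in wild type) lie above 2-fold, and Mrpl52 (-1.51 in knockout, -1.40 in wild type) lies below it.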

How the data were processed

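Each array is 1 two-colour hybridisation. Per the labels, RNA was amplified with an amino allyl kit, with knockout in Cy3 and wild type in Cy5. The deposited scanner files hold spot intensity and local background of both channels, not normalised, per the file headers. The authors also deposited log2 values, which per the labels are normalised ratios and here run knockout over wild type; where both channels were detectable, they differed from centred ratios after blank subtraction by at most 0.14 on the E14 array and 0.057 on the P1 array. Their medians over genes detectable in both channels are -0.00 and -0.01. Arrays were scanned at 3 gains, per the file headers, and the labels do not name the scanner software.

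Here, normexp with an offset of 50 was run on the signal alone, since the local background followed the spots in an earlier analysis, and then loess within each array (span 0.3), with control spots at weight 0, in limma 3.58.1 and R 4.3.3. The procedure was checked for sign and centring on simulated arrays, where only probes well above the blank spots were given known ratios. Neither the size of a ratio nor dim probes formed part of this check. Blank statistics left out 5 percent of the 2736 blank spots at each end. The 4 flagged probes of the E14 array were left out. Of 23473 probes, 16631 had 1 gene symbol, none had several and 6842 none; 3947 symbols were updated with RefSeq, assembly GRCm38.p6, which also gave the gene order. The files name no build. Probes of a gene were averaged over those detectable in both channels. Levels between the arrays used Aquantile scaling. Members past 1.5-fold, members detectable in 1 channel and the members from Dad1 to Haus4 are given in full, the rest by role with examples. Mapping to groups follows the labels, the number of arrays limits the precision, and no p-value was computed. Alternatives were the background correction, offset, within-array normalisation, detection threshold and filter, leaving out whole-number readings, probe choice and fold threshold. The members, lists and settings were chosen with earlier results of these data known.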

Additional observations from a re-analysis of the deposited data

Results flagged for a closer look

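With 1 array per comparison, 2 members lay past 1.5-fold in opposite directions on the 2 arrays in the authors' deposited table, against 1.08% of the 12005 genes measured on both arrays (130 genes), and the difference was not tested. Adcy4 had a P1 value minus E14 value of -2.20 (-1.19 on the P1 and 1.01 on the E14 array). Its E14 span from blank-spot noise, -0.28 to 3.12, includes 0, and its P1 span, -1.54 to -0.88, does not. Osgep had a difference of 1.35 (0.73 on the P1 and -0.63 on the E14 array), and both of its spans, -0.53 to 2.12 and -2.75 to 1.08, include 0. After normexp and loess Adcy4 stood at -0.41 on the P1 and 0.06 on the E14 array, and Osgep at 0.08 and -0.09.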

How the results depend on the processing

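Supt16 was past 1.5-fold and higher in the knockout on both arrays under all 11 alternatives and at the 2-fold threshold, and the P1 ratio of Pnp was negative under each setting that gave one. Beside each count below, the share of all genes past the same threshold under that setting is in brackets. With each array centred on its median instead of loess, the median of all genes was 0.29 on the E14 array and the members' E14 median was 0.52. There, 15 members were higher on the E14 array (24.9%) and 7 on the P1 array (10.2%), and the E14 ratio of Apex1 was 0.58. The authors' deposited values gave 4 higher (5.38%) and 2 lower members (1.22%) on the E14 array, and 9 higher (11.9%) and 5 lower (12.2%) on the P1 array. With the local background subtracted there were 7 higher (14.2%) and 3 lower (7.71%) on the E14 array, and 9 higher (18.4%) and 6 lower (14.8%) on the P1 array. With it used in normexp, 2 were higher on the E14 array (3.84%), and 4 higher (6.93%) and 0 lower (3.59%) on the P1 array. With an offset of 0, 1 member was lower on the E14 array (0.756%) and 4 on the P1 array (9.34%), and with an offset of 20, 4 on the P1 array (5.99%). At 3 blank SDs 0 members were lower on the P1 array (4.24%). Without whole-number readings the counts of members were unchanged. The share of all genes past 1.5-fold the same way on both arrays was then 0.0584%, against 0.125% with them. At 2-fold, 1 was higher (0.558%) and 0 lower (1.45%) on the P1 array. Members past 1.5-fold the same way on both arrays numbered 5 with the local background subtracted (7.35%; Supt16, Pnp, Ajuba, Haus4 and Mettl3) and 5 under median centring (7.21%; Supt16, Nedd8, Oxa1l, Pabpn1 and Rnase4). They numbered 2, Supt16 and Pnp, with an offset of 0 (0.3%) and in the authors' deposited values (1.28%). The cause of these shifts was not tested. No paired analysis was possible because each comparison had 1 array. Readings within 10 blank SDs of the blank mean limit Adcy4, Ltb4r1, Myh7, Osgep, Pnp, Rab2b and Rem2 on the E14 array, and Ajuba, Myh6, Myh7, Osgep, Pnp, Rab2b, Rem2 and Slc7a8 on the P1 array.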
